A study of Sus scrofa with 28 samples.

Results

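The genes described here are 9 genes for secreted proteins, most of them best known from the matrix of cartilage and tendon: COMP, THBS4, CILP, CILP2, ACAN, FMOD, CHAD, TNN and PRSS35. They were picked by symbol because their transcripts were abundant in the day 28 infarct zone of PBS pigs, and they are 9 of 17603 genes in the count tables. That contrast chose them, so their levels in the PBS animals of day 28 are given as a description with no test. RNA was sequenced in bulk from 14 wild-type Landrace pigs of 3 months. In all of them a balloon closed the left anterior descending coronary artery for 60 min before reperfusion. At reperfusion the pigs received either recombinant human Agrin, an extracellular matrix protein, at 33 µg/kg into the coronary artery, or the vehicle, which the labels call PBS. Each pig gave a pair of left ventricular libraries, 1 infarct and 1 remote, on day 3 (3 PBS and 4 Agrin pigs) or on day 28 (3 PBS and 4 Agrin pigs), so there was no uninjured animal. Tetrazolium chloride staining told the zones apart.

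Cartilage and tendon matrix is built from collagen fibrils, from proteoglycans that hold water, and from glycoproteins that link the fibrils to each other and to cells. In mature infarct scars of mice, a fibroblast state called the matrifibrocyte carries transcripts of such genes after the contractile myofibroblast phase has passed. COMP and THBS4 are pentameric thrombospondins, CILP and CILP2 are a pair of secreted paralogues from the intermediate layer of cartilage, ACAN is the large aggregating proteoglycan aggrecan, FMOD and CHAD are leucine-rich repeat proteins that bind collagen, TNN is tenascin-W, and PRSS35 is a secreted protein of the serine protease family.

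Each gene had 1 row in the tables. By the RefSeq annotation of Sscrofa11.1, COMP (chr2:59061409-59068951), CILP2 (chr2:58383568-58391973) and THBS4 (chr2:88729531-88780759) lie on chromosome 2, CILP (chr1:163236864-163271222) and PRSS35 (chr1:82714880-82734883) on chromosome 1, and FMOD (chr9:64062995-64073853) and TNN (chr9:117174743-117244041) on chromosome 9. The others are ACAN (chr7:54449830-54520606) and CHAD (chr12:26741737-26746364). COMP and CILP2 were separated by 669435 bases and 23 protein-coding genes. The 250 bases before the annotated gene start are shown for COMP, CILP2 and ACAN, which differed most between the PBS infarct zones of both days, and for FMOD and CHAD, the pair of members most alike over the libraries. They come from chr2:59061159-59061408 (plus strand), chr2:58391974-58392223 (minus), chr7:54449580-54449829 (plus), chr9:64073854-64074103 (minus) and chr12:26746365-26746614 (minus), read 5′ to 3′ along the gene. Capitals mark matches, on either strand, to the AP-1 motif TGANTCA, the SOX motifs ACAAAG and ACAATG, the TEAD motif GGAATG or the TATA motif TATAAA.
COMP: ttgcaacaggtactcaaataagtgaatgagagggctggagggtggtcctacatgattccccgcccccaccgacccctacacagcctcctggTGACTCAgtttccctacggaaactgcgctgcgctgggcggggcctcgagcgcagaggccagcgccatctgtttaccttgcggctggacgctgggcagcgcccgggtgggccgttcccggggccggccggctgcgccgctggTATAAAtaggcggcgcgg
CILP2: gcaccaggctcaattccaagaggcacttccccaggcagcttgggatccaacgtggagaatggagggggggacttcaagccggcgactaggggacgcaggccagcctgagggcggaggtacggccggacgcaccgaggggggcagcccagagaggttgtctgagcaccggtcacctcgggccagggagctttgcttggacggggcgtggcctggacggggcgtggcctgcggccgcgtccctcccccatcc
ACAN: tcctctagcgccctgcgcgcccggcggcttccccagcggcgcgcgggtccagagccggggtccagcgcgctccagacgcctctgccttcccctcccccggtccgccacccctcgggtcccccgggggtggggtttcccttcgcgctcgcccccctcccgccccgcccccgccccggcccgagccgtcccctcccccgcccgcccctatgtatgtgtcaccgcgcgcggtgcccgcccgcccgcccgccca
FMOD: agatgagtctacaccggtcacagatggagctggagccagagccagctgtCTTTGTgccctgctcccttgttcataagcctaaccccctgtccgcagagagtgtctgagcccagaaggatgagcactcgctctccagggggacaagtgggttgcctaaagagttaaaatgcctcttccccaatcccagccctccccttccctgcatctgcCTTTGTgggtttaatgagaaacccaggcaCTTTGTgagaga
CHAD: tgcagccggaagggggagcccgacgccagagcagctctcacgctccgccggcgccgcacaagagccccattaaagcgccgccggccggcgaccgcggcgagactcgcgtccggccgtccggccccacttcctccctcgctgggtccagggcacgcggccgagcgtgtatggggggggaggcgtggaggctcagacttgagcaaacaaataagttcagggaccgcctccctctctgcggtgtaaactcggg
COMP held TGACTCA at 159 and TATAAA at 18 bases before its start, and CILP, not printed, held TGACTCA at 55 bases. FMOD held 3 copies of the SOX motif ACAAAG on the opposite strand, at 201, 41 and 12 bases. The other 6 windows held no match. Over 19556 windows of this length, 5.27% held TGANTCA, 12.1% ACAAAG, 7.29% ACAATG, 10.3% GGAATG and 9.77% TATAAA, so a single match is common. The starts are annotated gene models, and a match is not evidence of binding.

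Libraries held 15.38 to 34.77 M counts. Levels are given as CPM (counts scaled to the library total) with trimmed mean of M-values (TMM) scaling, and 3 counts, taken as the limit of a count of 0, corresponded to 0.109 to 0.233 CPM in the libraries where a member had no count. Cardiac muscle markers summed to 43873 to 85296 CPM in all remote libraries. They were far lower in the day 3 infarct zone (2372 to 16708 CPM), and at day 28 they stood at 9304 CPM in pig 523 (PBS), 51492 CPM in pig 536, 44615 CPM in pig 547 and 58443 to 70572 CPM in the Agrin pigs. In bulk tissue, fewer cells of a type and less RNA per cell cannot be told apart. Remote libraries of pig 577 (Agrin, day 3) and pig 547 (PBS, day 28) stood apart for several members. The 2 zones of pig 573 (PBS, day 3) did not match in their Y-linked transcripts, and the infarct column of pig 577 has another letter than the rest (577B), so the fold changes between zones on day 3 are also given without pig 573 or 577. Below, a gene was called between groups when the edgeR test gave an adjusted p under 0.05, the log2 fold change was at least 1 in size and the highest count was above 30. Values after ± are the standard error (SE) of a log2 fold change, and n was 3 PBS or 4 Agrin pigs.

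On day 3 the members fell into different patterns between zones. In PBS pigs 5 of 9 members were called higher in the infarct zone (CHAD, FMOD, PRSS35, THBS4 and TNN) and 0 lower, where 18.2% of all 15409 genes tested were called higher. In Agrin pigs 5 of 9 were called higher (CILP, FMOD, PRSS35, THBS4 and TNN), beside 19.3% of all genes. FMOD, PRSS35, THBS4 and TNN were called in both treatments. COMP, ACAN and CILP2 were called in neither. The median log2 fold change of the members was 2.13 in PBS and 1.90 in Agrin pigs, beside 0.04 and 0.06 over all genes. All 9 passed the filter on low counts, also when the PBS day 28 infarct libraries were left out.

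**Figure D1:**
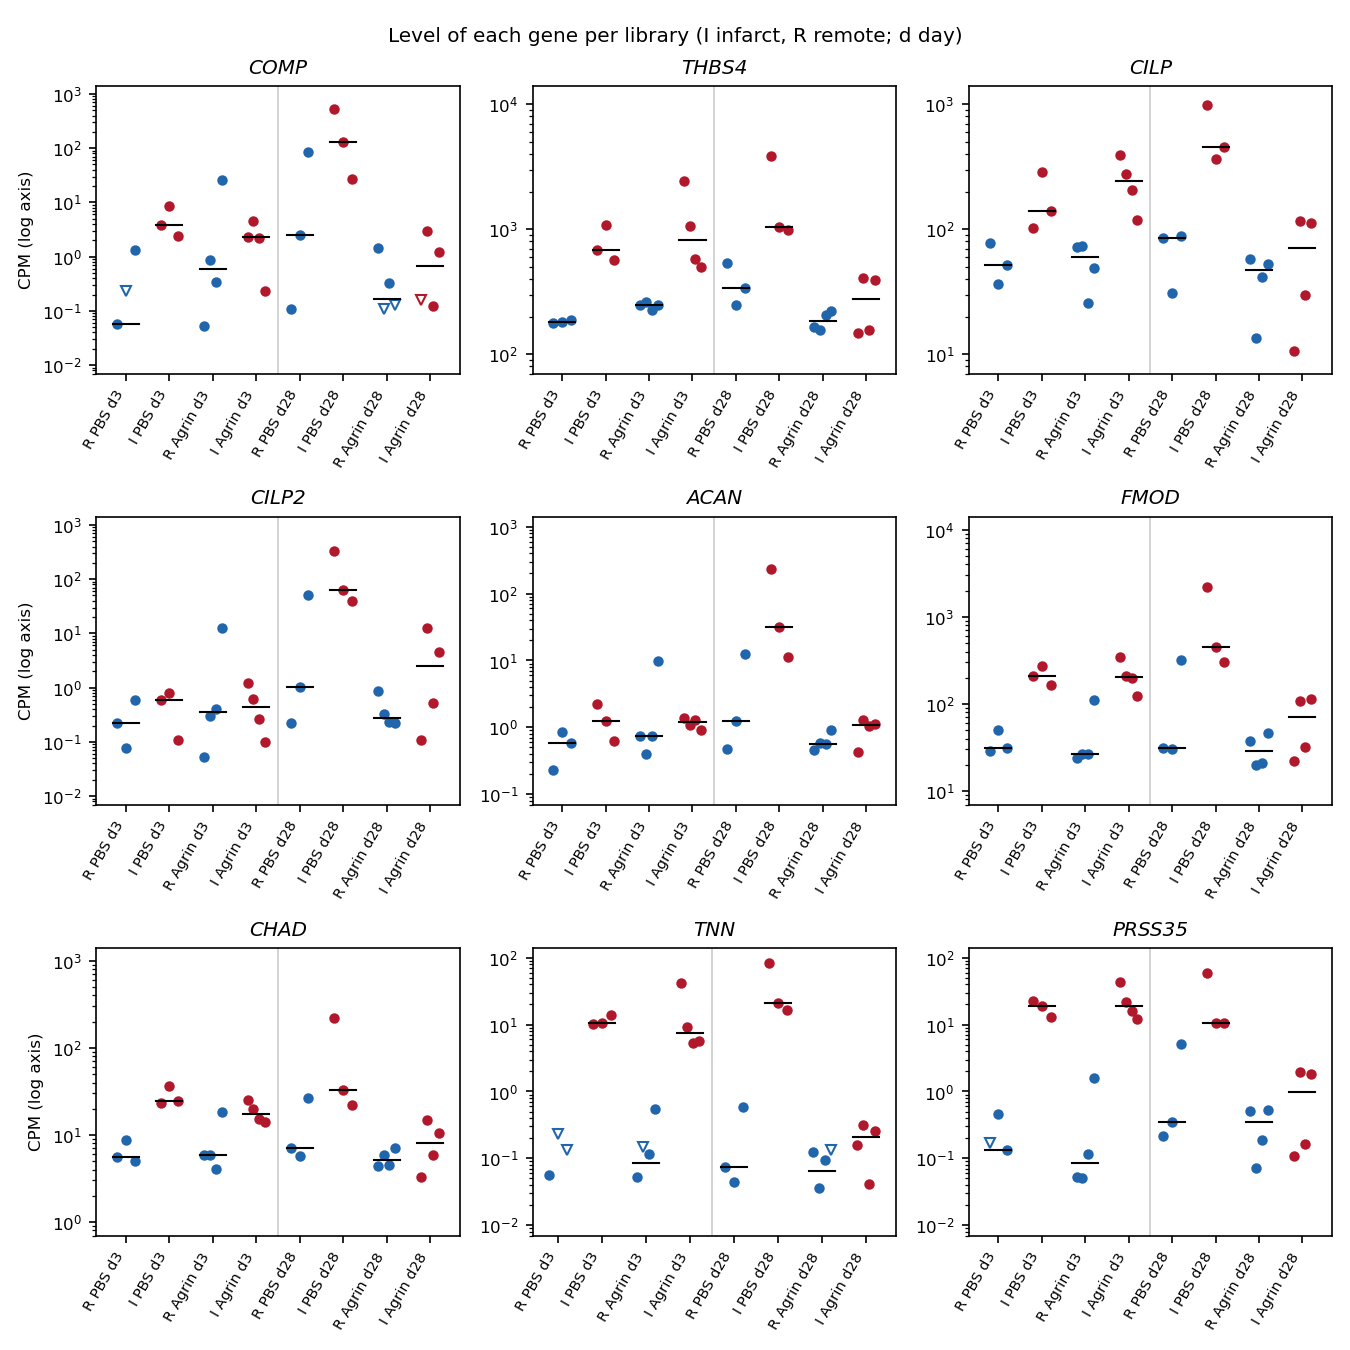
Level of each of the 9 genes in CPM (log axis) in every library, by zone, treatment and day; red points are infarct and blue points remote libraries, black lines are group medians, and open triangles mark libraries with a count of 0, drawn at the level of 3 counts. COMP, CILP2 and ACAN reach at most 8.42 CPM in day 3 infarct libraries and are at 11.2 CPM or above in PBS day 28 infarct libraries, whereas TNN and PRSS35 are at 5.30 CPM or above in all day 3 infarct libraries.

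The thrombospondins differed in timing. COMP, which links collagen fibrils, was at 3.75, 8.42 and 2.39 CPM in the day 3 infarct zone of PBS pigs 571, 573 and 575, against 0.0566, 0 and 1.34 CPM in their remote zones. The infarct library was higher in each of these 3 pigs, but the fold change was not called (log2 2.98 ± 2.45, edgeR adjusted p = 0.297; log2 5.62, adjusted p = 0.0229 with DESeq2). By day 28 the PBS infarct zones held 527, 129 and 27.1 CPM in pigs 523, 536 and 547. These levels lay 46.9-fold above the day 3 PBS infarct zone as means and 34.4-fold as medians, and the groups did not overlap. In pig 547 the remote zone held still more COMP, 83.4 CPM, while the remote zones of pigs 523 and 536 held 0.11 and 2.46 CPM. The Agrin infarct zones of day 28 held only 0 (pig 519), 2.98 (522), 0.123 (544) and 1.23 CPM (548), and those of day 3 held 0.229 to 4.54 CPM.

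THBS4, a thrombospondin of tendon and muscle matrix, was already abundant on day 3. It stood at 682, 1081 and 567 CPM in the PBS infarct zones and at 178 to 186 CPM in their remote zones, with no overlap (log2 fold change 2.04 ± 0.42, edgeR adjusted p = 0.000757). The Agrin infarct zones of day 3 held 2438, 1061, 580 and 502 CPM in pigs 570, 572, 576 and 577, all above the 226 to 263 CPM of their remote zones (log2 1.90 ± 0.38, adjusted p = 0.000429). On day 28 the PBS infarct zones held 3854, 1038 and 994 CPM, a range that overlapped with that of day 3. In Agrin pigs of day 28 the gene was at 403 and 395 CPM in pigs 522 and 548 and at 148 and 156 CPM in pigs 519 and 544, the latter pair below their own remote zones.

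The CILP paralogues split in the same way. CILP, a secreted protein that binds TGF-β in cell culture, was at 391, 277, 207 and 119 CPM in the day 3 Agrin infarct zones and at 25.6 to 73.8 CPM in the remote zones, with the infarct zone higher in 4 of 4 pigs (log2 2.16 ± 0.66, edgeR adjusted p = 0.00948). In day 3 PBS pigs it was at 102, 287 and 140 CPM in the infarct zone and the fold change was not called (log2 1.59 ± 0.77, adjusted p = 0.0832). The difference between treatments in this day 3 response was also not called (log2 0.57 ± 0.99, adjusted p = 1). CILP2 was close to absent on day 3, at 0.11 to 0.782 CPM in PBS and 0.0982 to 1.19 CPM in Agrin infarct zones. On day 28 the PBS infarct zones held 336, 62.2 and 39.8 CPM, which was 295-fold above day 3 as means and 105-fold as medians. CILP2 could not have been called between the day 3 PBS zones, since its highest count there was 19.

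Among the proteoglycans and leucine-rich repeat genes, ACAN had a timing like that of COMP and CILP2 in PBS pigs. It was at 0.624 to 2.26 CPM in all day 3 infarct libraries of both treatments and at 233, 31.8 and 11.2 CPM in the PBS infarct zones of day 28. The Agrin infarct zones of day 28 were at 0.428 to 1.30 CPM, overlapping with day 3. FMOD, which regulates collagen fibril width, was high at both times. It was at 211, 273 and 165 CPM in day 3 PBS infarct zones against 28.7 to 50.7 CPM in remote zones (log2 2.56 ± 0.91, edgeR adjusted p = 0.0238), and at 2226, 449 and 305 CPM in PBS infarct zones of day 28. In day 3 Agrin pigs FMOD was at 342, 209, 197 and 123 CPM in the infarct zone (log2 2.54 ± 0.86, adjusted p = 0.0171). CHAD, an adhesive protein for cartilage cells, was at 23.2 to 36.2 CPM in PBS and 14.2 to 25.1 CPM in Agrin infarct zones of day 3 (log2 2.13 ± 0.72, adjusted p = 0.0181, and log2 1.32 ± 0.63, adjusted p = 0.0769). Without pig 577 the Agrin value for CHAD rose to 1.92 and was called (adjusted p = 0.0223).

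CHAD lies within ACSF2 on the other strand, and the end of ACAN overlaps the end of HAPLN3, on the other strand, by 817 bases. Strand use in the counting was not given in the sources used here, so reads from these partners could not be told apart. ACSF2 was at 38.1 to 80.4 CPM over all libraries while CHAD ranged from 3.32 to 220 CPM. HAPLN3 was at 2.98 to 12.1 CPM in the day 3 infarct zones and 69.7 to 137 CPM in their remote zones. On day 28 it was at 34.2 to 79.9 CPM in the PBS and 69.1 to 128 CPM in the Agrin infarct zones. ACAN was at 0.428 to 1.30 CPM in the latter. The day 28 remote zones held 59.3 to 189 CPM of HAPLN3 in PBS and 89.8 to 195 CPM in Agrin pigs. The part of HAPLN3 reads in the ACAN counts was not tested.

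TNN and PRSS35 had the largest fold changes of the 9 members on day 3 in both treatments. TNN, an extracellular glycoprotein of bone and of tumour stroma, was at 10.2, 10.6 and 13.8 CPM in the PBS infarct zones, whereas their 3 remote libraries together held 1 count. The ratio of summed counts was 610 with a 95% counting interval of 109 to 24104 (exact, counting error only). The Agrin infarct zones of day 3 held 42.6 CPM in pig 570 and 5.30 to 9.20 CPM in the other 3 (log2 6.00 ± 0.79, edgeR adjusted p = 1.14e-05). PBS infarct zones of day 28 held 83.3, 21.3 and 16.5 CPM. PRSS35 was at 13.1 to 22.2 CPM in PBS and 12.2 to 43.3 CPM in Agrin infarct zones of day 3, and at most 1.57 CPM in remote zones of that day (log2 6.62 ± 1.45, adjusted p = 0.00118, and 5.63 ± 1.10, adjusted p = 0.000441). It was the only member with a lower median on day 28 than on day 3 in the PBS infarct zone, at 59.0, 10.7 and 10.7 CPM.

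Without pig 573, 3 of 9 members were called in the PBS pigs of day 3 (PRSS35, THBS4 and TNN), and the same 3 remained when pig 571 or 575 was left out instead. The share of all genes called is not given for these smaller fits, so the lower count is not a result about the members. Without pig 573, FMOD was at 2.63 (edgeR adjusted p = 0.0636) and CHAD at 2.16 (adjusted p = 0.0542). THBS4 was then at 1.77, TNN at 8.66 and PRSS35 at 7.73, all called. CILP went from 1.59 to 0.92, COMP from 2.98 to 2.08, CILP2 from 0.45 to −0.29 and ACAN from 1.25 to 1.61, none of them called. In the Agrin pigs of day 3, FMOD was not called without pig 570, 572 or 576 (adjusted p = 0.0828, 0.064 and 0.0641).

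**Figure D2:**
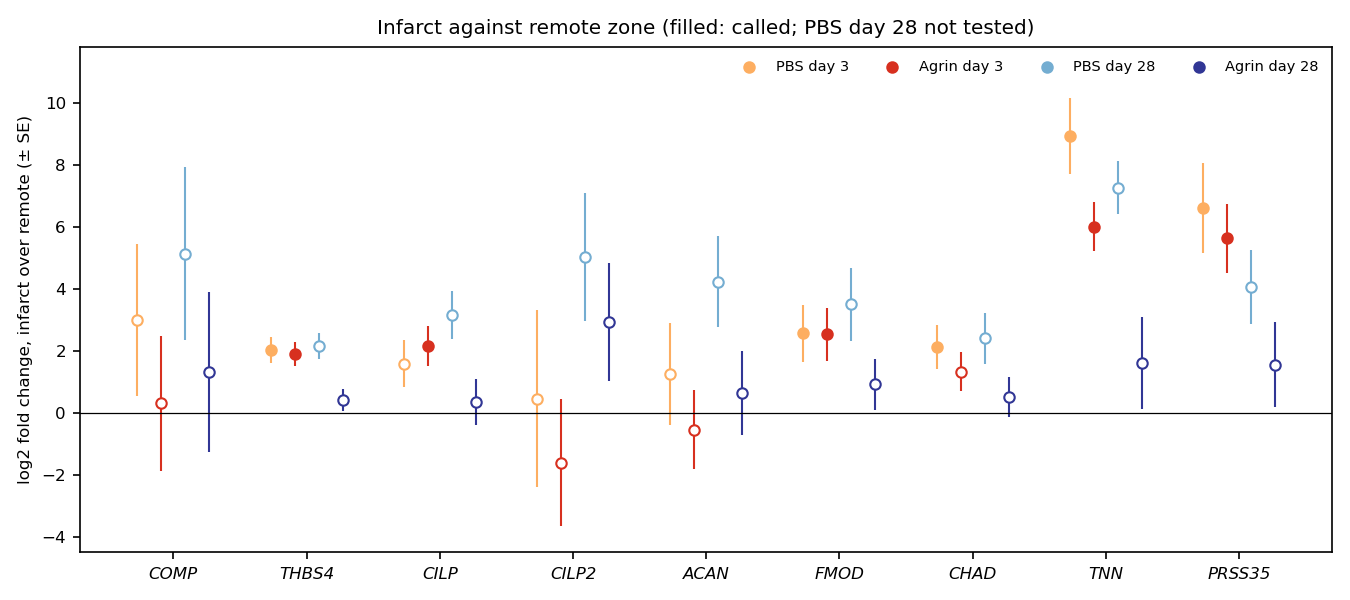
Log2 fold change of infarct over remote zone for each gene in the 4 combinations of treatment and day, with bars of 1 SE; filled points were called, and open points were not called or, for PBS day 28, not tested. The TNN value of PBS pigs on day 3 rests on 1 remote count and is no bound. THBS4, FMOD, TNN and PRSS35 have filled points on day 3 in both treatments, and all Agrin day 28 points are open.

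Between the zones of Agrin pigs on day 28, 0 of 9 members were called, as were 0% of all genes, with 599 of 15409 genes at an unadjusted p under 0.05. DESeq2 called 0 genes there too, with 536 at an unadjusted p under 0.05. The members' median log2 fold change was 0.92, beside 0.00 over all genes, and ranged from 0.34 ± 0.74 for CILP to 2.93 ± 1.90 for CILP2. TNN reached at most 10 counts in these libraries, so it could not have been called. In PBS pigs of the same day, where 5.58% of all genes were called higher and 2.25% lower, the median was 4.05, from 2.16 ± 0.43 for THBS4 to 7.26 ± 0.85 for TNN. The members were chosen on the PBS libraries of day 28, so the next count is a description. Every PBS infarct library of day 28 was above every Agrin infarct library of that day for 9 of 9 members, and for 12.5% of all genes. Cardiac muscle markers moved with this comparison too, as given above, and their part in it was not tested.

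Day 28 could be tested against day 3 within the Agrin infarct zones, on which the members had not been chosen. Time and cell make-up of the tissue cannot be told apart there. From day 3 to day 28, 5 of 9 members fell (CILP, FMOD, PRSS35, THBS4 and TNN), where 16.3% of 14968 genes were called lower, and 1 rose (CILP2), where 17.7% were called higher. TNN fell by 6.17 ± 0.95 on the log2 scale (edgeR adjusted p = 0.000114), from 5.30 to 42.6 CPM down to 0.0409 to 0.31 CPM. PRSS35 fell by 4.35 ± 0.81 (adjusted p = 0.000457), THBS4 by 1.96 ± 0.60 (adjusted p = 0.0121), CILP by 1.79 ± 0.65 (adjusted p = 0.0291) and FMOD by 1.56 ± 0.64 (adjusted p = 0.0495). Cardiac muscle markers went from 6769 to 13603 CPM up to 58443 to 70572 CPM over the same libraries, and their part in these changes was not tested. COMP was not called (−0.87 ± 1.07, adjusted p = 0.496), nor was ACAN (−0.12 ± 0.83, adjusted p = 0.907) or CHAD (−0.99 ± 0.62, adjusted p = 0.18).

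CILP2 rose by 3.18 ± 1.16 (edgeR adjusted p = 0.0292) in these zones, with high levels in 2 of 4 pigs. It was at 12.4 CPM in pig 522 and 4.52 CPM in pig 548 but at 0.107 and 0.531 CPM in pigs 519 and 544, which lay in the range of day 3. Without pig 522 the value was 1.86 (adjusted p = 0.174), and the call was also lost without pig 572, 576 or 577. FMOD was not called without pig 519, 544, 570, 571, 572, 573, 575 or 576 (adjusted p = 0.0526 to 0.134), CILP without pig 544, 570 or 572 (adjusted p = 0.0515 to 0.0826), or THBS4 without pig 570 (adjusted p = 0.0596). In the remote zones of Agrin pigs, 8 of 9 members could be fitted and 0 were called between the days, as were 0% of all genes (1294 at an unadjusted p under 0.05, while DESeq2 called 16 higher and 9 lower).

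The change of the infarct response itself, day 28 against day 3 in Agrin pigs, was called for 1 of 9 members. THBS4 had a smaller difference between zones on day 28 (−1.49 ± 0.52, edgeR adjusted p = 0.0245), where 15% of all genes were called higher and 17.6% lower. That call was lost without pig 519, 544 or 570. Without pig 577, 3 members were called: THBS4, TNN at −6.67 (adjusted p = 0.0268) and PRSS35 at −6.88 (adjusted p = 0.0216). Without pig 522 CILP was called as well as THBS4 (−2.72, adjusted p = 0.0117), and without pig 547 PRSS35 was (−4.05, adjusted p = 0.0386). Shares over all genes are not given for these fits with a pig left out, so the counts describe the members' calls alone. On day 3, 0 of 9 members differed between Agrin and PBS in their response, as did 0% of all genes (684 at an unadjusted p under 0.05, and 2 called by DESeq2). The same held within the infarct zone, where 170 genes had an unadjusted p under 0.05 and DESeq2 called 0. Standard errors of the response difference ran from 0.55 for THBS4 to 3.47 for CILP2, so large differences in CILP2 were not detectable.

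In PBS pigs, 6 of 9 members had day 28 infarct levels that were all above those of day 3 (COMP, ACAN, CILP2, CILP, FMOD and TNN), as had 20.9% of all genes. The members were chosen on these day 28 libraries, so the count is a description. The ratio of group means was 295 for CILP2, 66.6 for ACAN and 46.9 for COMP, and lay between 1.49 and 4.59 for the other 6 genes. The ratio of group medians was 105 for CILP2, 25.2 for ACAN and 34.4 for COMP. For the other 6 it ran from 0.574 for PRSS35 to 3.27 for CILP. The members just inside this line were FMOD, with a lowest day 28 level of 305 CPM against a highest day 3 level of 273 CPM, and TNN, with 16.5 against 13.8 CPM. Just outside it was THBS4, with 994 against 1081 CPM. The values fit the name of late scar genes only in part. COMP, ACAN and CILP2 were low in every day 3 infarct library, but in pig 547 all 3 were higher in the remote zone than in the infarct zone on day 28, and the day 3 remote library of pig 577 held 26.0 CPM of COMP against 27.1 CPM in the infarct zone of pig 547. The other 6 were already at 10.2 CPM or above in all PBS infarct libraries of day 3.

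Pigs differed widely within a group. Pig 523 had the highest level of 9 of 9 members over all 28 libraries, and its infarct zone was also the one with the fewest cardiac muscle transcripts on day 28 and 6.83% mitochondrial counts, against 18.07 to 34.47% in the other day 28 infarct libraries. Its fibroblast markers summed to 49596 CPM, the highest of all 28 libraries, against 14147 and 12210 CPM in the infarct zones of pigs 536 and 547, and the part of these differences in its member levels was not tested. The fibroblast markers include the matrix genes COL1A1, COL3A1, DCN and LUM, so their sum does not measure fibroblast content alone. Between the highest and the lowest PBS infarct library of day 28 the ratio was 20.8 for ACAN, 19.4 for COMP, 9.92 for CHAD, 8.43 for CILP2, 7.31 for FMOD, 5.53 for PRSS35, 5.06 for TNN, 3.88 for THBS4 and 2.71 for CILP. Leaving out pig 523 lowered the median fold change of the members between PBS zones of day 28 from 4.05 to 2.06 on the log2 scale. Leaving out pig 547 raised it to 6.73.

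**Figure D3:**
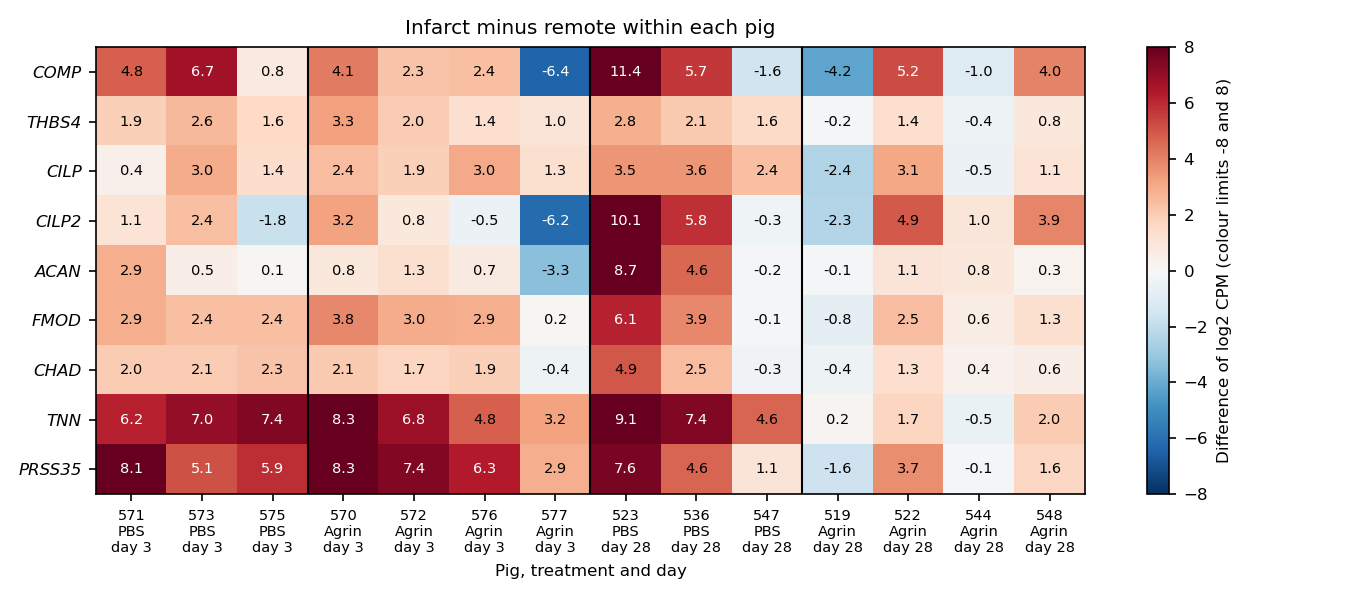
Infarct minus remote log2 CPM for each gene (rows) in each pig (columns), with the value printed in each cell; red is higher in the infarct and blue higher in the remote zone. On day 28, pigs 523, 536, 522 and 548 are red for all 9 genes, and pigs 547 and 519 are blue for COMP, CILP2, ACAN and CHAD, as is pig 577 on day 3.

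Within pigs, the infarct zone exceeded the remote zone for 9 of 9 members in PBS pigs 523 and 536 on day 28 but for 4 of 9 in pig 547. In Agrin pigs of day 28 it did so for 9 of 9 members in pigs 522 and 548, for 4 of 9 in pig 544 and for 1 of 9 in pig 519. The median difference over the members was 2.46 in pig 522, 1.28 in pig 548, −0.13 in pig 544 and −0.76 in pig 519. Cardiac muscle markers were at 70143, 58443, 70572 and 70002 CPM in the infarct libraries of these pigs in the same order, and fibroblast markers at 7915, 15586, 6246 and 6677 CPM. Fibroblast markers, which include matrix genes, were thus higher in the 2 pigs with high members. Cardiac muscle markers were lower in pig 548 alone, and the part of both marker sets in the difference between pigs was not tested. On day 3 the infarct zone was higher for 9 of 9 members in pigs 571, 573, 570 and 572, for 8 of 9 in pigs 575 and 576, and for 5 of 9 in pig 577.

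In 2 pigs it was the remote library that stood apart. Over the 14 remote libraries, those of pigs 547 and 577 were the highest pair for 7 of 9 members. COMP was at 83.4 and 26.0 CPM there and at most 2.46 CPM in the other 12, CILP2 at 50.1 and 12.8 CPM against at most 1.01 CPM, and ACAN at 12.5 and 9.86 CPM against at most 1.23 CPM. FMOD was at 319 and 110 CPM against at most 50.7 CPM, and CHAD at 26.5 and 18.5 CPM against at most 8.64 CPM. TNN was low even there, at 0.587 and 0.553 CPM, and THBS4 was at 337 CPM in pig 547, below the 535 CPM of pig 523, and at 250 CPM in pig 577, within the range of the other remote libraries. These libraries kept muscle markers at 60910 and 70705 CPM and mitochondrial shares at 35.33 and 30.77%. Their fibroblast markers summed to 5467 and 3657 CPM, within or at the lower end of the 3657 to 13974 CPM of all remote libraries. Tendon and valve markers were higher there than in the other 12 remote libraries (4.96 and 2.44 CPM, against at most 2.15 CPM), as were the chondrocyte markers (6.50 and 5.39 CPM, against at most 4.67 CPM). Macrophage markers were lowest of all remote libraries in pig 577 (135 CPM, against 276 CPM or more) but at 569 CPM in pig 547. The part of these markers in the members' levels was not tested.

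Fold changes between zones moved when these pigs were left out. Without pig 577, the day 3 Agrin value went from 0.31 to 2.90 for COMP, from −0.54 to 1.02 for ACAN and from −1.60 to 1.38 for CILP2, none of them called (edgeR adjusted p = 0.28, 0.559 and 0.658). The called members moved too, PRSS35 from 5.63 to 8.45, TNN from 6.00 to 8.28, FMOD from 2.54 to 3.23 and CILP from 2.16 to 2.45, and these and THBS4 stayed called. Without pig 547, the day 28 PBS value went from 5.14 to 7.82 for COMP, from 4.23 to 6.77 for ACAN and from 5.03 to 8.00 for CILP2.

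Likeness between the members was compared over the 28 libraries. The Pearson correlation of log2 CPM, a description with no test since the libraries share zones, days and pigs, was 0.88 between COMP and CILP2, 0.86 between COMP and ACAN and 0.90 between CILP2 and ACAN. It was 0.97 between FMOD and CHAD, 0.94 between TNN and PRSS35 and 0.92 between THBS4 and CILP. Pairs across these also had high values, with 0.93 between FMOD and PRSS35, 0.91 between THBS4 and TNN, 0.90 between FMOD and TNN, 0.84 between COMP and FMOD and 0.82 between COMP and CHAD. The lowest value was 0.46, between CILP2 and TNN. Other genes most like COMP and ACAN included CRABP1, a retinoic acid-binding protein (0.86 and 0.84), and the gene most like CILP2 was KERA (0.90), a keratan sulphate proteoglycan of cornea and tendon. FMOD was closest to COL11A1 (0.98), a chain of the thin collagen fibrils of cartilage, then to CHAD and PTN (0.96). CHAD was next closest to COL11A1 (0.95) and C1QTNF12 (0.93). CILP was closest to SFRP1, SORCS2 and LTBP2 (0.92 each), and THBS4 to ADAMTS17, THBS3 and SORCS2 (0.94 each). TNN was closest to P4HA3, COL12A1 and MYO1D (0.96, 0.96 and 0.95), and PRSS35 to COL8A2, SAMD11 and P4HA3 (0.96, 0.95 and 0.95).

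**Figure D4:**
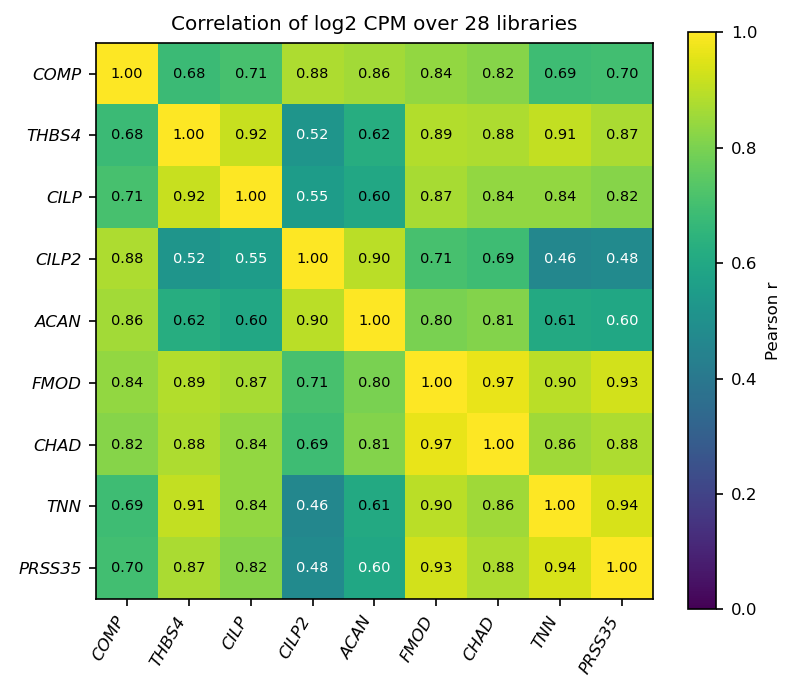
Pearson correlation of log2 CPM between each pair of the 9 genes over 28 libraries, with the value in each cell. COMP, CILP2 and ACAN correlate at 0.86 to 0.90 with each other, and CILP2 at 0.46 to 0.55 with TNN, PRSS35, THBS4 and CILP.

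Defining genes of true cartilage were scarce. Of 8 chondrocyte markers in the tables, COL2A1, the main collagen of hyaline cartilage, reached at most 3.97 CPM (remote zone of pig 547), MATN3 5.44, HAPLN1 1.29, COL11A2 1.02, COL9A1 0.478, CNMD 0.291 and SNORC 0.227 CPM in any library. COL9A3 was the exception, at up to 44.9 CPM. The markers summed to 14.03 to 51.7 CPM in PBS infarct zones of day 28, to 12.0 to 51.2 CPM in day 3 infarct zones of both treatments and to 1.39 to 6.50 CPM in day 28 Agrin infarct and all remote zones. COL2A1 was at 0 counts in 6 libraries and SNORC in 19. In the PBS infarct zones of day 28, where ACAN and COMP were highest, COL2A1 was at 0.532 to 0.908 CPM. That was low but above the 0.0367 to 0.217 CPM of the PBS infarct zones of day 3.

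**Figure D5:**
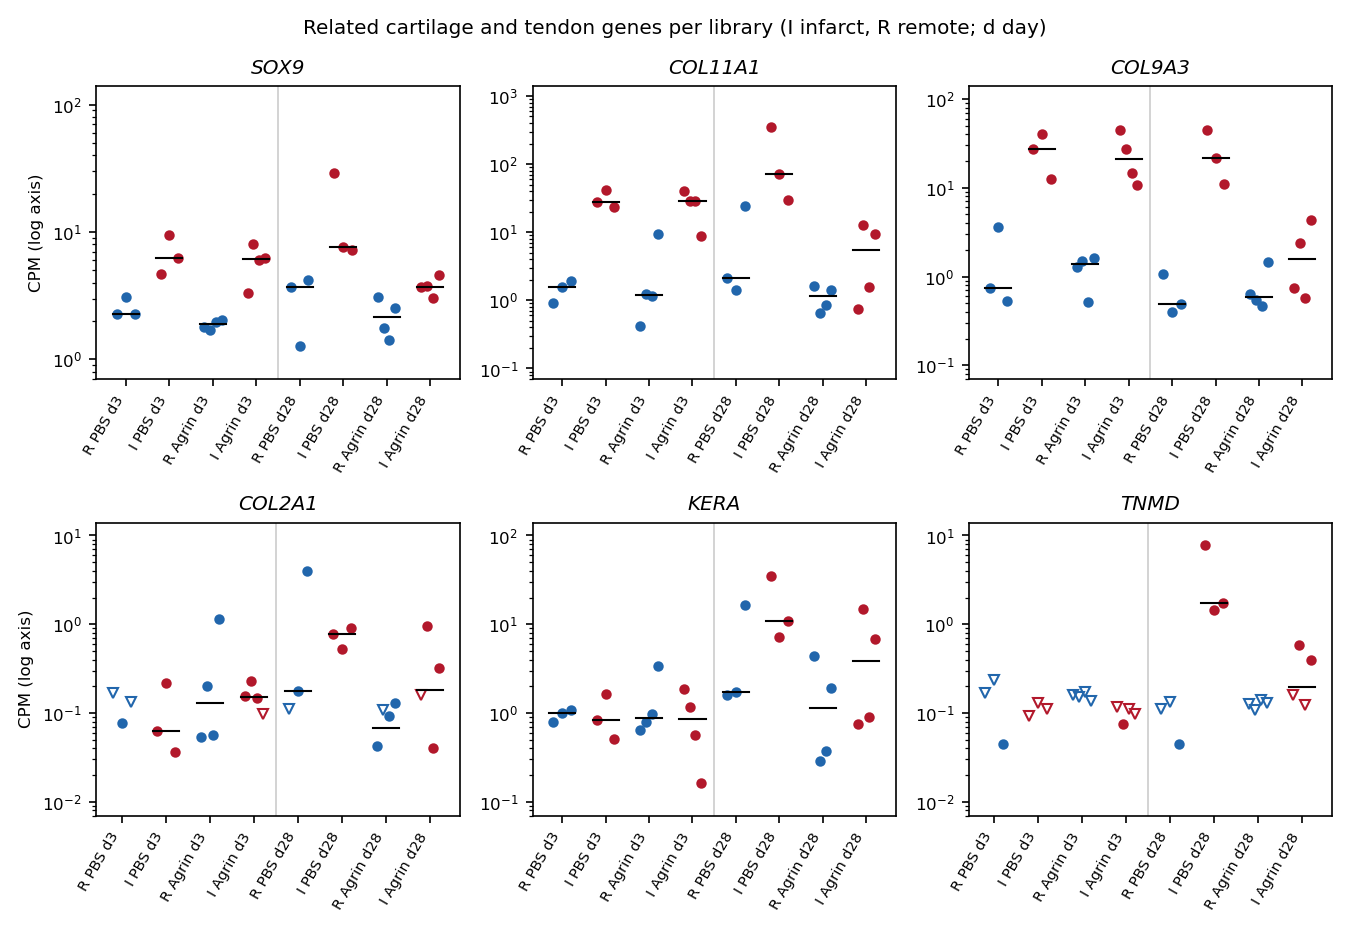
Levels in CPM (log axis) of SOX9, COL11A1, COL9A3, COL2A1, KERA and TNMD in every library, with red infarct and blue remote points, group medians as black lines and open triangles for a count of 0 drawn at the level of 3 counts. COL9A3 is at 10.9 CPM or above in the infarct libraries of day 3 and of PBS pigs on day 28 but at 0.572 to 4.37 CPM in those of Agrin pigs on day 28, whereas TNMD is at 1.46 CPM or above in the PBS day 28 infarct libraries and at most 0.59 CPM in the others.

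SOX9, the transcription factor that drives cartilage genes, was at 29.1, 7.69 and 7.22 CPM in the PBS infarct zones of day 28 and 1.27 to 4.20 CPM in their remote zones. It was already called higher on day 3, by 1.37 ± 0.35 in PBS (edgeR adjusted p = 0.00314) and by 1.61 ± 0.31 in Agrin pigs (adjusted p = 0.000344). TNMD, a membrane protein of mature tendon, was at 7.72, 1.46 and 1.74 CPM in the PBS infarct zones of day 28, had 0 counts in all 3 PBS infarct libraries of day 3, and in Agrin pigs of day 28 was at 0.59 and 0.398 CPM in pigs 522 and 548 and at 0 in pigs 519 and 544. KERA was at 34.8, 7.12 and 10.8 CPM in the PBS infarct zones of day 28 and at 14.9 and 6.83 CPM in Agrin pigs 522 and 548, against 0.75 and 0.899 CPM in pigs 519 and 544. From day 3 to day 28 KERA rose in the Agrin infarct zone by 2.76 ± 0.94 (adjusted p = 0.0215). COL11A1 was at 24.1 and 9.45 CPM in the remote zones of pigs 547 and 577 and at 0.425 to 2.15 CPM in the other 12.

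The remaining genes of the pathway are given by lists, whose counts stand beside 18.2% of all genes called higher and 16.5% lower between the zones of PBS pigs on day 3, 19.3% and 15.5% in Agrin pigs on day 3, 5.58% and 2.25% in PBS pigs on day 28 and 0% in Agrin pigs on day 28. Of 11 cartilage collagens and matrix genes tested (of 21 listed), 4 were called higher between zones in PBS pigs and 5 in Agrin pigs of day 3, 4 in PBS pigs of day 28 and 0 in Agrin pigs of day 28. Median log2 fold changes were 1.86, 1.44, 1.16 and 0.66 in that order. CYTL1, a secreted cytokine-like protein of cartilage, and COL2A1 had the largest fitted values in Agrin pigs of day 28, at levels near the limit of counting. CYTL1 reached 0.186 CPM at most in their infarct zones and COL2A1 0.962 CPM. Of 19 chondrogenic and tenogenic regulators, 7 were higher and 2 lower on day 3 in each treatment, and 11 were higher in PBS pigs of day 28. TNMD and EGR1, an immediate early factor also active in tendon, had the largest fitted values in Agrin pigs of day 28. EGR1 was at 85.3 to 314 CPM in their infarct and 30.6 to 115 CPM in their remote zones (1.62 ± 0.61, not called).

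Of 12 small leucine-rich repeat proteoglycans other than FMOD, 4 were higher and 1 lower on day 3 in each treatment and 6 were higher in PBS pigs of day 28. PRELP, the gene next to FMOD on chromosome 9, was not called on day 3 (0.18 ± 0.35 in PBS, edgeR adjusted p = 0.674) and stood at 2682, 548 and 452 CPM in the PBS infarct zones of pigs 523, 536 and 547. CHADL, a relative of CHAD, was lower on day 3 in both treatments (−1.46 ± 0.26, adjusted p = 0.000176, in PBS). Of 5 thrombospondin and tenascin paralogues, 4 were higher and 1 lower on day 3 in each treatment and 3 were higher in PBS pigs of day 28. TNC, tenascin-C, a glycoprotein of early wounds, was at 475 to 895 CPM in PBS infarct zones of day 3 and at 162 to 623 CPM on day 28, and in Agrin pigs it fell from 544 to 2030 CPM down to 6.69 to 25.7 CPM. THBS3, another pentameric thrombospondin, fell by 2.41 ± 0.52 in the Agrin infarct zone between the days (adjusted p = 0.00131).

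Of 19 aggrecan partners and turnover genes, 10 were higher and 3 lower in PBS pigs of day 3, 11 higher and 2 lower in Agrin pigs of day 3 (the lower counts being near the share over all genes), 4 higher and 1 lower in PBS pigs of day 28 and 0 in Agrin pigs of day 28. HAS1, a hyaluronan synthase, was at 0.782 to 3.56 CPM in PBS infarct zones of day 3, and ADAMTS5, the main aggrecanase in mice, was lower in them than in the remote zone (−1.56 ± 0.43, edgeR adjusted p = 0.00543). Of 11 bone and mineral matrix genes, 5 were higher and 2 lower on day 3 in each treatment, and 3 higher and 1 lower in PBS pigs of day 28. SPP1, osteopontin, was at 9114 to 20126 CPM in PBS infarct zones of day 3 and 33.9 to 94.6 CPM on day 28, while SP7, a transcription factor of bone-forming cells, was at most 2.87 CPM in any library.

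Of 21 myofibroblast and scar matrix genes, 17 were higher and 2 lower in PBS pigs of day 3, 17 were higher in Agrin pigs of day 3, 18 in PBS pigs of day 28 and 0 in Agrin pigs of day 28. COL1A1 was at 8657 to 19131 CPM in PBS infarct zones of day 3 and 4060 to 19722 CPM on day 28, and SFRP2 was at 636 to 699 CPM and then 111 to 482 CPM. Between the PBS infarct zones of both days, the COL1A1 ranges overlapped and SFRP2, a secreted Wnt modulator, was lower in every day 28 library. The share of all genes that were lower in this way was not computed. COMP, ACAN and CILP2 were higher in every day 28 library, as were 20.9% of all genes, but the members were chosen on these libraries. In the Agrin infarct zone 16 of these 21 genes fell between the days, where 16.3% of all genes were called lower. Their median was −1.77, beside −1.56 for the members and 0.04 over all genes.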

How the data were processed

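RNA was extracted from frozen heart tissue and its polyA fraction was sequenced. Per the labels and the study's methods, the authors used bcl2fastq 2.20.0.422, cutadapt, STAR 2.7.3a against Sscrofa11, Picard 2.22.4 to merge reads with the same molecular identifier, and HTSeq on uniquely mapped reads, and deposited raw counts per gene. Strand use in counting is not given in the sources used here. The deposited tables normalized by size factors were not used. The infarct column of pig 577, named 577B, was assigned to that pig's infarct sample because its remote sample has its own column and a supplementary table of the study lists the same values as infarct. Members and lists were chosen with earlier results of these data known.

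Genes passing filterByExpr were fitted with edgeR 4.0.16 (R 4.3.3; TMM scaling, robust quasi-likelihood test, Benjamini-Hochberg adjustment over all genes), with a block for each pig and an infarct term for each treatment and day (28 libraries, 15409 genes), or within 1 zone without the block (14968 infarct and 14324 remote genes). Standard errors were derived from the fold change and its F statistic and are approximate. The replicate numbers pair the samples because the study's methods describe both zones as taken from 1 animal. Deviations of the paired zones from group means correlated at 0.115 to 0.639 across genes in 14 of 14 pigs. No correlation between zones of different pigs is given for comparison, so these values cannot tell a true pair from a false one. Pig 573, whose zones did not match in Y-linked transcripts (733 counts in the infarct and 0 in the remote zone), was at 0.209. Counting intervals cover counting error only. The fits were tested on simulated data.

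All 9 members are named. For likeness, the 3 genes with a symbol and the highest correlation of log2 CPM (prior count 2) are given. Of each list, the 2 genes with the largest absolute fold change between the Agrin zones of day 28 are named, since none was called there. SOX9, COL11A1, COL9A3, PRELP, ACSF2 and HAPLN3 were chosen after their values were seen. Sequences and positions are from RefSeq (Sscrofa11.1). Alternatives were the DESeq2 1.42.0 test, its size factors, library size alone, no filter on low counts, no replicate block, no PBS libraries of day 28, and each pig left out.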

Additional observations from a re-analysis of the deposited data

Results flagged for a closer look

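In groups of 4 libraries, Dixon's criterion was applied to CPM. The highest or lowest library was far from the other 3 in 8 of 36 sets of member and group. These sets share libraries and the members correlate, so a chance rate for the count cannot be given. In the remote zone of Agrin pigs on day 3, 6 of the 8 flagged sets had pig 577 as the high library. It held 26.0 CPM of COMP, 12.8 CPM of CILP2, 9.86 CPM of ACAN, 18.5 CPM of CHAD, 110 CPM of FMOD and 1.57 CPM of PRSS35. In the remote zone of Agrin pigs on day 28, CILP2 was at 0.883 CPM in pig 519, against 0.219 to 0.328 CPM in the other 3. In the infarct zone of Agrin pigs on day 3, TNN was at 42.6 CPM in pig 570. Groups of 3 were not examined in this way.

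The response of THBS4 in Agrin pigs differed between the days in the edgeR test of the difference itself (−1.49 on the log2 scale, adjusted p = 0.0245). The call was lost without pig 519, 544 or 570. In this comparison 17.6% of all genes were called lower, so the call does not set the members apart. The infarct zone was above the remote zone in 4 of 4 pigs on day 3 and in 2 of 4 pigs on day 28.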

How the results depend on the processing

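Of 1565 values of single members under the alternatives, 1513 were kept, 29 lost a call and 22 gained one. Kept means the same side of the threshold or, without a test, a change smaller than the spread between pigs. Among these 1513, 54 uncalled values changed sign. Of the rest, 1 value without a test moved, and 0 called values reversed. Between zones, leaving out 1 pig gave 3 to 6 members called in PBS pigs and 4 to 6 in Agrin pigs of day 3, against 5 each, and the median fold change in PBS pigs of day 28 ranged from 2.06 to 6.73 on the log2 scale (3.10 with no replicate block, 4.05 with it). In the Agrin infarct zone, 3 to 7 members were called between the days, against 6. For the change of the response in Agrin pigs, 0 to 3 were called, against 1, with 3 by DESeq2 (PRSS35 and TNN besides THBS4), 3 with no replicate block (CILP2 and PRSS35 besides THBS4) and 2 without the PBS libraries of day 28. Shares of all genes called are not given beside these member counts, so the counts are not a result about the members. CILP in PBS pigs of day 3 was close to the threshold and gained a call with no replicate block (1.68, edgeR adjusted p = 0.0398). With the block kept, it also gained one with library size alone (2.24, adjusted p = 0.0268) and without pig 519 (1.59, adjusted p = 0.0326) or 522 (1.59, adjusted p = 0.0312). Scaling by library size alone moved the median of all genes between the Agrin zones of day 3 from 0.06 to 0.76, with 5596 genes higher and 1260 lower against 2975 and 2396. In PBS pigs of day 3 it gave 5197 and 1467 against 2806 and 2539. Between the Agrin infarct zones of both days it gave 1466 and 4371 against 2647 and 2434, and for the change of response 1271 and 5037 against 2314 and 2707. Low counts limit what can be detected for CILP2, COMP and ACAN on day 3.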
